A study of Arabidopsis thaliana with 6 samples.

Results

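The nuclear genes for the subunits and antenna proteins of the photosystems of Arabidopsis thaliana were examined in poly(A) RNA from seedlings, 38 genes among the 33323 listed in each library. They were taken by gene ID and fall into 3 classes: 18 antenna genes (LHCA1 to LHCA4 and LHCB1.1 to LHCB6), 11 genes of photosystem I (PSAD1 to PSAO) and 9 genes of photosystem II (PSBO1 to PSBY). The seedlings were 5 days old and grown under cR, a label understood here, from knowledge of the field, as red light given continuously. Wild type (WT) and hid1 (hidden treasure 1) mutant seedlings gave 3 libraries each, which carry numbers in their titles and are called biological replicates by the submitters. The HID1 gene makes an RNA without a protein product and is known to further seedling development under red light. The labels name neither the kind of mutation nor the ecotype.

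Photosystems I and II are complexes of the chloroplast membrane that turn absorbed light into electron flow. Their reaction centres are made mostly from chloroplast genes, while the antenna proteins, which hold chlorophyll around them, and many small subunits come from the nuclear genes described here. LHCA proteins form the antenna of photosystem I. LHCB1, LHCB2 and LHCB3 form the trimeric antenna of photosystem II, and LHCB4, LHCB5 and LHCB6 are its minor, monomeric antenna proteins. Transcripts of these genes are known to be among the most abundant of green seedlings and to rise when phytochrome senses red light.

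Levels are the RPKM deposited by the authors, reads scaled by gene length and library size, so that levels of different genes can be compared. Estimated depth was 17.5 to 26.1 M reads a library, and the genotypes overlapped in it. At that depth LHCB4.3, the lowest of the 38 genes, had about 363 to 1495 reads a library and each of the others at least about 10804. The 38 genes held 21.9%, 19.95% and 22.5% of a WT library's summed RPKM and 21.4%, 16.9% and 15.1% of a hid1 library's. The antenna genes held most of this, 13.2% to 15.6% in WT and 9.99% to 15.4% in hid1.

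The libraries of hid1 were not alike for these genes. Summed over the 18 antenna genes, hid1 replicate 1 (121597 RPKM) lay within the WT range of 106346 to 125950, whereas hid1 replicates 2 and 3 (89416 and 76829) lay below it. For photosystem I the sums of the 3 hid1 libraries, 24333, 21697 and 19386, all lay below the lowest WT sum of 27924. For photosystem II they were 23296, 23547 and 19889 against a lowest WT sum of 25939, again without overlap. The mean hid1 sum was 81.5% of the WT mean for the antenna, 76.4% for photosystem I and 83.5% for photosystem II. Without LHCB1.3, the most abundant transcript, the antenna sum in hid1 was 75.4% of WT. The genotypes still overlapped in that sum, with hid1 replicate 1 (82415) above WT replicate 2 (76943).

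**Figure D1:**
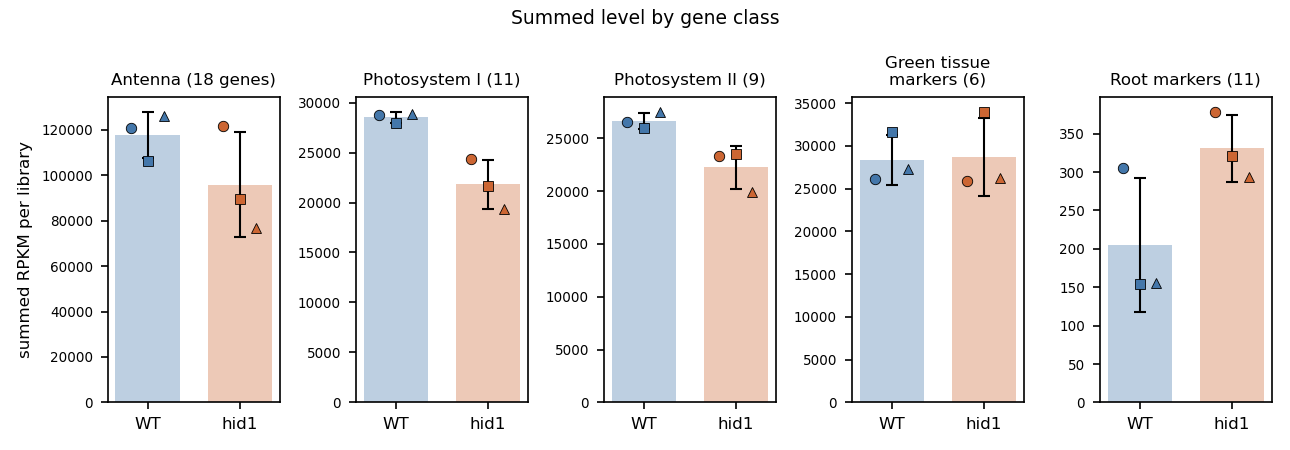
Summed RPKM per library (y axis, from 0) for the 3 gene classes and for 6 green tissue and 11 root markers, in WT and hid1. Symbols are libraries (circle, square and triangle for replicates 1, 2 and 3), bars are means and error bars are SD over n = 3. The photosystem sums of hid1 lie below those of WT, while hid1 replicate 1 reaches the WT level in the antenna panel.

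In these bulk seedling samples, fewer green cells and less RNA per green cell cannot be told apart. Markers of green tissue outside the photosystems were present in every library, and none of 6 passed the test. Their summed level was 26093 to 31611 RPKM in WT and 25862 to 33973 in hid1. Most of this sum was RBCS1A, with a mean of 19734 in WT and 20901 in hid1. Hid1 means of RCA, PRK, SBPASE and CA1 were 83.1% to 95.6% of WT, and that of GAPA was 115.5%. The genotypes overlapped in each of these markers. Of 11 root markers, 5 rose in hid1 (9.41% of all genes tested did), 1 fell (4.21% did) and 5 did not pass, and none was at 0. Their summed level was 154.3, 155.3 and 305.7 RPKM in WT and 293.2, 321.2 and 378.4 in hid1. WT replicate 1 lay within the hid1 range of this sum. Without IRT1, the marker that fell, the sums were 125.0 to 255.3 in WT and 285.6 to 373.7 in hid1 and did not overlap. IRT1 was left out with earlier results of these data known. Taken one by one, 3 of the 11 markers had every hid1 library above every WT library and 1 had every hid1 library below. Over all genes tested, these shares were 23.1% and 11.4%. The part of root tissue in the results below was not tested.

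Per gene, hid1 was compared with WT by limma on log2(RPKM + 1), with p-values adjusted over the 18871 genes that reached a mean of 1 RPKM in either genotype, and a gene was called at an adjusted p of at most 0.05. All 38 genes entered. In hid1, 37 of the 38 had a lower mean than in WT (30 with quantile normalization, counting LHCB1.3 with a difference of 0). Of the 38, 8 fell past the threshold, 1 rose and 29 did not pass. Over all genes tested, 41.2% were lower without any threshold, 4.21% were called lower and 9.41% higher. The median log2 fold change was -0.41 for the antenna, -0.42 for photosystem I and -0.27 for photosystem II, against 0.07 over all genes tested. With quantile normalization, which fixes the highest values of each library to common levels, these medians were -0.14, -0.26 and -0.09. Genes lower there were 14 of 18 antenna (LHCB1.3, at 0, among them), 10 of 11 photosystem I and 6 of 9 photosystem II genes.

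**Figure D2:**
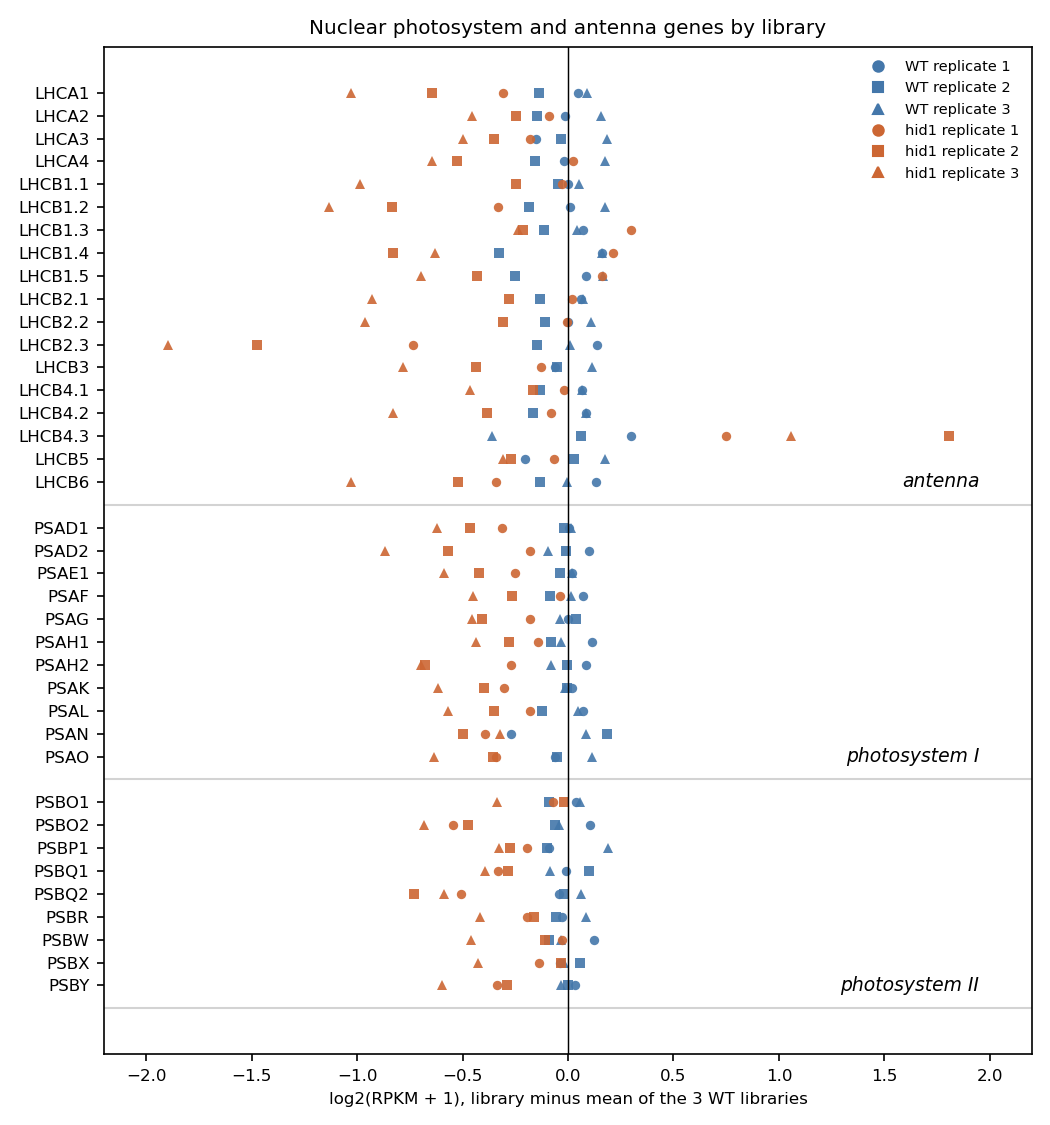
Each library's log2(RPKM + 1) minus the mean of the 3 WT libraries (x axis) for the 38 genes (y axis), with WT in blue, hid1 in orange and a symbol for each replicate number. The hid1 symbols lie to the left of the WT symbols for 22 genes and to the right for LHCB4.3, and for the other 15 the genotypes overlap. Over all genes tested, the shares were 11.4% to the left and 23.1% to the right.

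Among the 18 antenna genes, 4 fell (LHCB2.3, LHCB1.2, LHCA1 and LHCB6), 1 rose (LHCB4.3) and 13 did not pass. Gene spans are given in TAIR10.1 from RefSeq. LHCB2.3 (AT3G27690, chromosome 3, 10255906 to 10257489), which codes for a protein of the trimeric antenna, stood at 1305, 1069.6 and 1194 RPKM in WT and at 711, 426 and 318 in hid1. Every hid1 library was below every WT library, and the mean fell to 40.8% of WT (log2 fold change -1.37, SE 0.24, limma adjusted p = 0.00436). LHCB4.3 (AT2G40100, chromosome 2, 16745628 to 16747424), a variant of the minor antenna protein LHCB4 and the least expressed gene of the 38, stood at 15.7, 13.2 and 9.60 RPKM in WT and at 21.8, 46.5 and 27.3 in hid1. It rose to 248% of WT without overlap (log2 fold change 1.204, SE 0.25, adjusted p = 0.0107), where 23.1% of all genes tested had every hid1 library above every WT library. The 17 other antenna genes had the opposite sign (14 with quantile normalization, counting LHCB1.3 with a difference of 0). These 2 calls held in each of the 6 fits that left out a library.

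LHCB1.2 (AT1G29910, chromosome 1, 10472280 to 10473502), 1 of 5 copies of the most abundant antenna protein, was at 10095, 8801 and 11319 RPKM in WT and at 7953, 5612 and 4571 in hid1, a fall without overlap (-0.77, SE 0.21, adjusted p = 0.0386). LHCA1 (AT3G54890, chromosome 3, 20339504 to 20341176), a protein of the photosystem I antenna, was at 5059, 4447 and 5195 in WT and at 3946, 3121 and 2393 in hid1 (-0.66, SE 0.19, adjusted p = 0.0407). LHCB6 (AT1G15820, chromosome 1, 5446462 to 5447880), a minor antenna protein of photosystem II, was at 5069.96, 4214 and 4606 in WT and at 3641, 3212 and 2259 in hid1 (-0.63, SE 0.19, adjusted p = 0.0484). In all 3 genes hid1 replicate 1 was the highest hid1 library and replicate 3 the lowest. Each of these 3 calls was lost in every fit that left out a library other than hid1 replicate 1, with an adjusted p of 0.0626 to 0.134, so that LHCB2.3 was then the 1 antenna gene called lower. Without hid1 replicate 1 there were 6.

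LHCB1.3 (AT1G29930, chromosome 1, 10477885 to 10479114), the most abundant transcript of the table, was at 33491, 29403 and 32789 RPKM in WT and at 39182, 27496 and 26999.5 in hid1. The genotypes overlapped, with hid1 replicate 1 the highest and hid1 replicate 3 the lowest of all 6, and the difference of -0.05 had a 95% interval of -0.53 to 0.43 (adjusted p = 0.903). Its sign turned without hid1 replicate 2 (0.03) or replicate 3 (0.04). The antenna genes nearest to the threshold without passing were LHCB3 (3689, 3722 and 4172 in WT, 3524, 2851 and 2238 in hid1, adjusted p = 0.116), which joins LHCB1 and LHCB2 in trimers, and LHCB4.2 (2817, 2368 and 2821 in WT, 2518, 2039 and 1497 in hid1, adjusted p = 0.152). LHCB3 did not overlap between the genotypes and LHCB4.2 did. LHCA3, picked out after its values were seen, was the only other gene of the 13 without overlap, at 3323, 3607 and 4202 in WT and 3258, 2892 and 2617 in hid1. Over all genes tested, 11.4% had every hid1 library below every WT library. The other LHCB1 copies were at 9804, 9489.6 and 10160.3 in WT and 9627, 8279 and 4960.5 in hid1 for LHCB1.1, at 8341, 5949 and 8332 in WT and 8623, 4187 and 4811 in hid1 for LHCB1.4, and at 15396, 12207 and 16257 in WT and 16222, 10769 and 8959 in hid1 for LHCB1.5. LHCB2.1 was at 2687, 2346 and 2706 in WT and 2612, 2119 and 1351 in hid1, and LHCB2.2 at 3399.7, 3144 and 3661 in WT and 3388, 2745 and 1744 in hid1. LHCB4.1 was at 4381, 3819 and 4374 in WT and 4134, 3726 and 3034 in hid1. In each of these 6 copies of called genes the genotypes overlapped and hid1 replicate 1 was the highest hid1 library. Mean hid1 levels of the 13 lay between 74.4% and 97.9% of WT, with an adjusted p of 0.116 to 0.903. With quantile normalization LHCB1.1, LHCB4.1 and LHCB5 were higher in hid1 (0.06, 0.06 and 0.01).

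**Figure D3:**
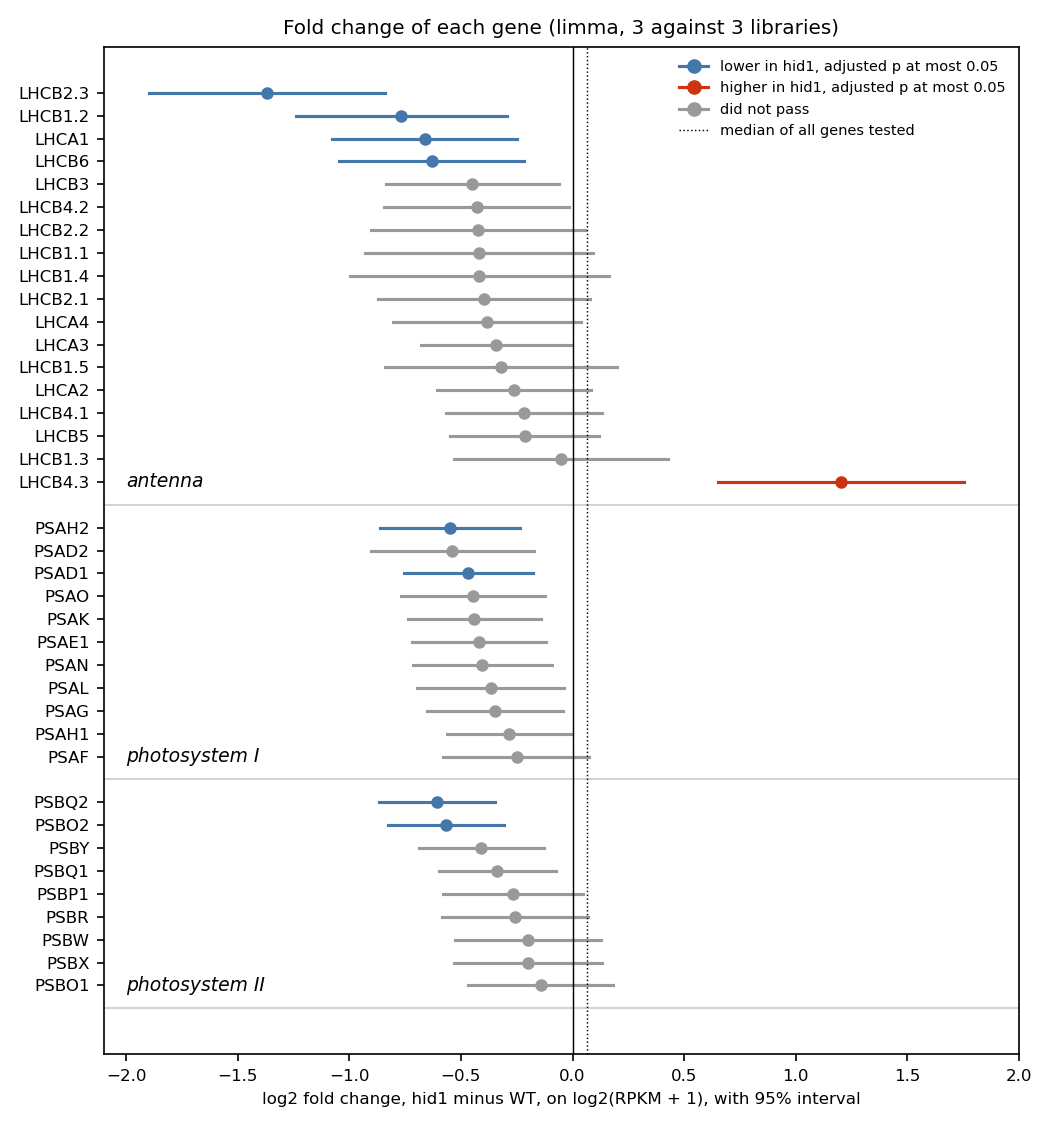
Log2 fold change of hid1 against WT (x axis, log2(RPKM + 1) scale) with its 95% interval for each gene (y axis), ordered within the 3 classes, from limma with 3 against 3 libraries. Blue marks the 8 genes called lower, red LHCB4.3, called higher, and grey the 29 that did not pass, and the dotted line is the median of all genes tested, 0.07.

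The copies of a family share sequence, and reads may have been split between them. In coding sequence LHCB1.1, LHCB1.2 and LHCB1.3, which lie side by side on chromosome 1, were 95.6% to 96.4% identical, and LHCB2.1 and LHCB2.2 96.6%. LHCB2.3 was 85.5% and 84.5% identical to these last, and LHCB4.3 65.3% and 66.7% to LHCB4.1 and LHCB4.2. No window of 50 bases of the LHCB2.3 or LHCB4.3 transcript occurred in a transcript of another, non-overlapping locus, whereas 10.6% of the windows of LHCB1.2 and 17.0% of those of LHCB1.3 did. When the 5 LHCB1 copies were summed, the family stood at 77127, 65849.6 and 78857 RPKM in WT and 81608, 56343 and 50300.4 in hid1. The genotypes overlapped and the family did not pass (-0.26, SE 0.25, adjusted p = 0.520). Leaving out hid1 replicate 1 gave -0.47, leaving out hid1 replicate 3 gave -0.12, and the value was 0 with quantile normalization, which sets the highest value of every library equal. The 3 LHCB2 copies summed to 7392, 6560.3 and 7559.8 in WT and to 6711, 5290.3 and 3413 in hid1, which did not pass either (-0.53, SE 0.23, adjusted p = 0.142). The LHCB2 sum was -0.75 without hid1 replicate 1, where it passed (adjusted p = 0.0473), and -0.26 without hid1 replicate 3. Other settings run for these sums were leaving out each other library, median-ratio scaling and quantile normalization, and none of those gave a call.

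Shares within a family do not depend on a scaling factor of the library. LHCB2.3 made up 17.7%, 16.3% and 15.8% of LHCB2 RPKM in WT and 10.6%, 8.05% and 9.31% in hid1. LHCB1.2 made up 13.1%, 13.4% and 14.4% of LHCB1 in WT and 9.75%, 9.96% and 9.09% in hid1, while LHCB1.3 made up 43.4%, 44.7% and 41.6% in WT and 48.0%, 48.8% and 53.7% in hid1. The genotypes did not overlap in these 3 shares or in those of LHCB2.1 and LHCB2.2, whereas they overlapped in those of LHCB1.1, LHCB1.4 and LHCB1.5. In the shares of LHCB2.3, LHCB1.2 and LHCB1.3, hid1 replicate 1, which was close to WT in total antenna level, lay with the other hid1 libraries. A share can rise only where others of its family fall, so shares of a family are not separate results. How often shares do not overlap in families outside the 38 genes was not computed. LHCB4.3 was 0.133% to 0.218% of LHCB4 in WT and 0.327% to 0.8% in hid1.

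Of the 11 photosystem I genes, 2 fell (PSAH2 and PSAD1) and 9 did not pass, but all 11 were lower in hid1 (10 with quantile normalization) and 10 of them, PSAF being the exception, did not overlap between the genotypes. Over all genes tested, 11.4% had the 3 hid1 libraries below the 3 WT libraries. Mean hid1 levels lay between 69.0% and 84.5% of WT, a narrower range than in the antenna class. PSAH2 (AT1G52230, chromosome 1, 19454798 to 19455668), for a subunit at the site where the photosystem II antenna can dock, was at 1340.3, 1259.8 and 1191 RPKM in WT and at 1048, 789.6 and 778 in hid1 (-0.55, SE 0.14, adjusted p = 0.0286). PSAD1 (AT4G02770, chromosome 4, 1229031 to 1230164), for a subunit of the ferredoxin docking site, was at 2539, 2493 and 2558 in WT and at 2039.8, 1830.1 and 1643 in hid1 (-0.47, SE 0.13, adjusted p = 0.0397). For both genes the spread among the hid1 libraries was larger than among the WT libraries.

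Next to the threshold were PSAK, a subunit at the antenna side (3043, 2998 and 2974 in WT, 2433, 2278 and 1958 in hid1, adjusted p = 0.0544), and PSAD2, the second copy of the PSAD subunit (1012, 938 and 885 in WT, 833, 637 and 516 in hid1, adjusted p = 0.0556). PSAO, the most abundant of the class, was at 4258, 4276 and 4798 in WT and 3497, 3470.1 and 2853 in hid1 (adjusted p = 0.0691). PSAH1, the second copy of PSAH, was at 1364, 1193 and 1229 in WT and 1143, 1039.1 and 932 in hid1 (adjusted p = 0.161). None of these 4 overlapped between the genotypes. The 5 others that did not pass, PSAE1, which borders the ferredoxin site, PSAF, at the plastocyanin site, PSAG, PSAL and PSAN, had an adjusted p of 0.0650 to 0.285. The calls on PSAH2 and PSAD1 were each lost in every fit that left out a library other than hid1 replicate 1 (adjusted p 0.0568 to 0.125). The count of photosystem I genes called lower was 1 (PSAN) without WT replicate 1, 0 without each of the other 4 and 3 without hid1 replicate 1. With quantile normalization it was 0, and PSAF was higher in hid1 (0.02).

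Of the 9 photosystem II genes, 2 fell, 7 did not pass and all 9 were lower in hid1 (6 with quantile normalization). Without overlap were 6 of the 9, against 11.4% of all genes tested with every hid1 library below every WT library. The 2 that fell code for subunits of the oxygen-evolving complex on the lumen side. PSBQ2 (AT4G05180, chromosome 4, 2671523 to 2673243) was at 1334, 1358 and 1432 RPKM in WT and at 966, 828 and 914 in hid1 (-0.61, SE 0.12, adjusted p = 0.00747). PSBO2 (AT3G50820, chromosome 3, 18890874 to 18892508), a copy of the protein that stabilizes the manganese cluster, was at 1142, 1019.8 and 1033 in WT and at 729, 765 and 663 in hid1 (-0.57, SE 0.12, adjusted p = 0.0105). In both genes the hid1 libraries lay close together, replicate 1 included. These 2 calls held whichever library was left out.

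PSBY, a small membrane subunit, came next (1567, 1534 and 1497 in WT, 1212, 1253 and 1012 in hid1, adjusted p = 0.0569), followed by PSBQ1 (1584, 1709 and 1503 in WT, 1267, 1310.1 and 1215 in hid1, adjusted p = 0.0865). Both were without overlap. PSBR, associated with the oxygen-evolving complex and the most abundant gene of the class, was at 6202, 6080.4 and 6693 in WT and 5521, 5644 and 4738 in hid1, without overlap but not past the threshold (adjusted p = 0.273). PSBO1, the main copy of PSBO, was at 4618, 4224 and 4679 in WT and 4286, 4437 and 3569 in hid1, which overlap (-0.14, 95% interval -0.47 to 0.18, adjusted p = 0.559). PSBP1, the partner of PSBO and PSBQ in the complex, and the small membrane subunits PSBW and PSBX had hid1 means of 82.9% to 87.7% of WT and an adjusted p of 0.237 to 0.409. PSBO1, PSBP1 and PSBX were higher in hid1 with quantile normalization (0.12, 0.04 and 0.08).

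For subunits coded by several copies, the log2 level of a copy was set against that of another in 8 pairs, chosen with earlier results of these data known. No pair can pass 0.05 in this design, since the smallest exact two-sided permutation p that 3 against 3 libraries allow is 0.1 (0.133 adjusted over the 8 pairs). That p was found for all pairs but PSAD2 with PSAD1 and LHCB2.2 with LHCB2.1. The share of other gene pairs without overlap was not computed. PSBO2 relative to PSBO1 was -2.02, -2.049 and -2.18 in WT and -2.55, -2.54 and -2.43 in hid1, a difference of -0.42 (SE 0.06), and of -0.64 with quantile normalization. LHCB2.3 relative to LHCB2.1 was -1.04, -1.13 and -1.18 in WT and -1.88, -2.31 and -2.08 in hid1, a difference of -0.97 (SE 0.13). The copies LHCB2.2 and LHCB2.1, by contrast, kept to 0.34 to 0.44 in WT and 0.37 to 0.38 in hid1, a difference of -0.03 (SE 0.03, exact permutation p = 0.4).

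PSBQ2 shifted by -0.27 (SE 0.12) relative to PSBQ1, PSAH2 by -0.26 (SE 0.09) relative to PSAH1, and LHCB4.2 by -0.21 (SE 0.09) relative to LHCB4.1. The last was -0.14 without hid1 replicate 3 and -0.44 with quantile normalization. LHCB4.3 shifted by 1.42 (SE 0.41) relative to LHCB4.1, from a mean of -8.27 in WT to -6.85 in hid1. PSAD2 relative to PSAD1 overlapped between the genotypes, with a difference of -0.07 (SE 0.13, exact permutation p = 0.7), and its sign turned without hid1 replicate 3 (0.02). In the PSBO, LHCB2 and LHCB4 pairs without overlap, the lower expressed copy was the one set against the other. A shift within a pair does not say which copy moved. PSAD2, also the lower expressed copy of its pair, overlapped. PSBQ1 and PSBQ2, and PSAH1 and PSAH2, were at similar levels in WT.

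**Figure D4:**
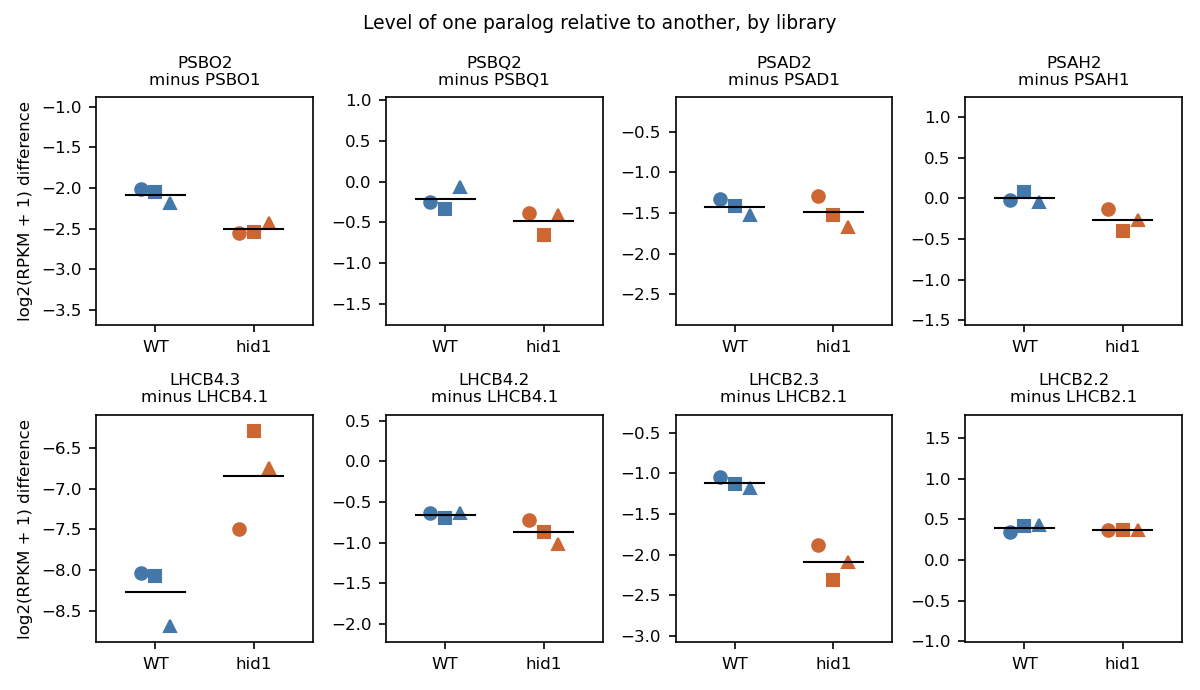
Log2(RPKM + 1) of a gene minus that of its paralog (y axis, each panel spanning 2.8 log2 units) in the 3 WT and 3 hid1 libraries, with lines at the means and a symbol for each replicate number. The hid1 points overlap the WT points for PSAD2 minus PSAD1 and LHCB2.2 minus LHCB2.1.

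Some gene models overlap a neighbour, and no source used here says whether strand was used in the counting. In the RefSeq annotation 38.6% of the windows of LHCB2.3 lie in the neighbour AT3G27700, which stood at 5.69 to 6.96 RPKM in all 6 libraries. LHCB6 shares 10.9% of its windows with overlapping loci, of which AT1G15810 was listed at 62.4 to 85.5 RPKM in WT and 45.5 to 59.1 in hid1. Reads of LHCB6 and AT1G15810 may therefore not be separate. PSAH2 shares 19.1% with ROPGEF11 (0.8 to 1.15). PSAH1 shares 49.2% with ROPGEF13, which was at 156.1 to 169.8 in WT and 113.9 to 134.5 in hid1, so reads of PSAH1 and ROPGEF13 may not be separate. All windows of LHCB1.5 (100%) lie in overlapping loci, of which RWA3 was at 3.63 to 5.91, and 11% of those of LHCB3 lie in ATM2 (8.63 to 10.2). PSAG with 58.8% and PSAE1 with 29.1% overlap loci not analysed here. The 9 photosystem II genes had no window in another listed gene.

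The 250 bases before the annotated start were read for each gene, as a description. The motifs searched on either strand were CACGTG, known as the G-box and bound by bZIP and bHLH factors such as HY5 and the PIFs, and GATAAG, known as the I-box of light-regulated promoters. The motif CCAAT, which NF-Y factors bind, and the motif TATAAA of the core promoter were searched in the same way, and none of the 4 motifs contains another of them. CCAAT was present in 17 of 18 antenna, 7 of 11 photosystem I and 2 of 9 photosystem II promoters, against 46.1% of all 26699 protein-coding genes. The G-box was present in 4, 1 and 2 promoters of the 3 classes (6.58% of all genes), the I-box in 4, 4 and 1 (12.2%) and TATAAA in 6, 6 and 5 (47.7%).

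Of the 8 genes that fell, 4 had a G-box (LHCB2.3, LHCB6, PSAH2 and PSBQ2) and 5 an I-box (LHCA1, LHCB6, PSAD1, PSAH2 and PSBQ2), while of the other 30 genes 3 had a G-box and 4 an I-box. CCAAT was present in 6 of the 8 and 20 of the 30, and TATAAA in 2 of the 8 and 15 of the 30. The split rests on calls of which 5 (LHCA1, LHCB1.2, LHCB6, PSAD1 and PSAH2) were lost when a library was left out. Over all genes tested, the G-box was present in 7.75% of those called lower and 7.39% of all, the I-box in 12.0% and 12.6%, CCAAT in 49.0% and 47.8%, and TATAAA in 46.9% and 46.1%. These are counts of letters in a window and show no binding. The 4 promoters with a G-box among the genes that fell are printed with that of LHCB2.1, the paralog of LHCB2.3 without a G-box in this window, and that of LHCB4.3, the gene that rose. They are chr3:10255656-10255905 on the plus strand for LHCB2.3, chr2:1824481-1824730 on the minus strand for LHCB2.1, chr1:5447881-5448130 on the minus strand for LHCB6, chr1:19454548-19454797 on the plus strand for PSAH2, chr4:2673244-2673493 on the minus strand for PSBQ2 and chr2:16745378-16745627 on the plus strand for LHCB4.3, from RefSeq TAIR10.1. Each reads 5′ to 3′ toward the start, with the 4 motifs of either strand in capitals.
LHCB2.3: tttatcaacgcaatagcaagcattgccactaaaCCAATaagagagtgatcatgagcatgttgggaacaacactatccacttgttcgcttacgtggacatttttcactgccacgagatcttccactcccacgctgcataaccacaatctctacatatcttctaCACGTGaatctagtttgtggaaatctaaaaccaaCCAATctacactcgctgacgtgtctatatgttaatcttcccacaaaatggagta
LHCB2.1: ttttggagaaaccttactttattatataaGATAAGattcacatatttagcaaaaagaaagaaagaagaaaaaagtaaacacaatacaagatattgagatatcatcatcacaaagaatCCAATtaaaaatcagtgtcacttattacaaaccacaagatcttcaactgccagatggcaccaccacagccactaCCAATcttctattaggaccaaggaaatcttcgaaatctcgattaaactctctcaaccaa
LHCB6: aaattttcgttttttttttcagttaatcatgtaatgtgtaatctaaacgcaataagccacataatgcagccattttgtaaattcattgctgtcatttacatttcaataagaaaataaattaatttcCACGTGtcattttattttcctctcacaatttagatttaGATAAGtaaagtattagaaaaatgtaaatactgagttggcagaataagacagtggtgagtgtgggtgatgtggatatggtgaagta
PSAH2: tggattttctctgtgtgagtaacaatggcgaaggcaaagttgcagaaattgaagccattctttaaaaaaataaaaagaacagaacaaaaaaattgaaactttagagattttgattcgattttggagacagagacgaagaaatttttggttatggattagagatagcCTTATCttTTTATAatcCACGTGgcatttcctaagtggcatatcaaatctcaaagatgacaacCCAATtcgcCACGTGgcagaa
PSBQ2: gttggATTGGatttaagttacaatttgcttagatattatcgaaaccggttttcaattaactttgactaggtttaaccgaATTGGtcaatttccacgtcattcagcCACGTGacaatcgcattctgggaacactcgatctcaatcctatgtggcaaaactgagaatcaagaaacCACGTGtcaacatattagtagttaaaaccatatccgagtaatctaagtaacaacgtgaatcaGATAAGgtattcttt
LHCB4.3: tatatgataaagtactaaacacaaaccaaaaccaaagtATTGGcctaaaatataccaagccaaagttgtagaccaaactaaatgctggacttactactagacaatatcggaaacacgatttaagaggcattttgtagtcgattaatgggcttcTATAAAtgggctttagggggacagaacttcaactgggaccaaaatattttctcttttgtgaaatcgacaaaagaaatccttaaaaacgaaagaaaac

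In LHCB2.3 the G-box began 88 bases before the start, between a CCAAT motif at 217 bases and another at 54. PSAH2 had 2 G-boxes, at 67 and 12 bases, with an I-box at 84. PSBQ2 also had 2, at 145 and 77, but so did its paralog PSBQ1, at 83 and 55, which did not pass. LHCB4.1 and LHCA4, neither called, each held 1 as well.

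Other genes of the light reactions were compared by the same fit, in lists written with earlier results of these data known. By that fit 4.21% of all genes tested were called lower and 9.41% higher, and 41.2% were lower without any threshold. Of 11 further photosystem and minor antenna genes, 2 fell and 9 did not pass, with 10 lower (median -0.21). Those that fell were PSBS, needed for the harmless release of excess light energy (1239, 1359.6 and 1123 RPKM in WT, 873, 1002 and 801 in hid1, adjusted p = 0.0377), and PSB28, a photosystem II assembly factor (218, 247 and 201 in WT, 139, 193 and 149.7 in hid1, adjusted p = 0.0481). Of 14 genes of electron carriers and the ATP synthase, 4 fell and 10 did not pass (median -0.13). ATPD, the delta subunit of the ATP synthase (1099, 1101 and 1087 in WT, 739, 734 and 735 in hid1, adjusted p = 0.00605), and FD2, the main leaf ferredoxin (3141, 3483 and 2891 in WT, 1987, 1998 and 1849 in hid1, adjusted p = 0.00641), had the smallest p, and PETE1 and PGRL1A also fell.

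None of 8 LHC-like stress protein genes passed (median 0.02), the one with the highest mean over the 6 libraries being SEP1 at 226.6 ± 41.3 RPKM in WT and 212.1 ± 28.4 in hid1 (mean ± SD, n = 3, limma adjusted p = 0.736). Picked out after their values were seen, ELIP2, an early light-induced protein (4.27, 5.77 and 2.65 in WT, 6.66, 21.5 and 8.05 in hid1, adjusted p = 0.0516), and LIL3.2 (183.0, 197.2 and 165.0 in WT, 223.9, 231.8 and 229.2 in hid1, adjusted p = 0.0636) had every hid1 library above every WT library. So did 23.1% of all genes tested. None of 7 genes for import, insertion and phosphorylation of antenna proteins passed (median 0.07), the most abundant being CPSRP43, part of the particle that carries antenna proteins to the membrane (310.1 ± 7.52 and 248.8 ± 31.4, n = 3, limma adjusted p = 0.0960). Of 10 regulators linked to antenna gene expression, 1 rose, near the 9.41% of all genes tested that did, and 9 did not pass (median -0.07). The regulator that rose was PIF3, known as a repressor of chloroplast development in the dark (12.8, 12.9 and 16.9 in WT, 30.4, 35.1 and 31.6 in hid1, adjusted p = 0.000409). GLK1 and GLK2, activators of antenna genes that were picked out after their values were seen, stood at 92.6 ± 6.57 and 116.5 ± 6.56 RPKM in WT and 80.7 ± 3.17 and 117.0 ± 16.4 in hid1 (n = 3, limma adjusted p = 0.232 and 0.993).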

How the data were processed

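The values were RPKM deposited by the authors, per the file headers, in a file for each of 6 libraries. Per the submitters' processing notes reads were mapped to TAIR10 with TopHat2 2.0.9 and differential genes called with Cuffdiff 2.0.0. Read counter, annotation, strand use and handling of multiply mapped reads were not given in the sources used here, and the levels of near-identical or overlapping genes depend on them. Each file lists 33323 nuclear and 0 organellar genes.

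RPKM are no counts, so log2(RPKM + 1) was fitted with limma 3.58.1 (R 4.3.3; lmFit, eBayes with a trend, genotype alone) after leaving out genes whose mean was under 1 RPKM in both genotypes. Benjamini-Hochberg adjustment ran over 18871 genes. Calls, counts and intervals measure the spread between 3 libraries. The test was checked on simulated data. The genes, lists and tests were chosen with earlier results of these data known. Described in full were the genes past the threshold, the most abundant and the 2 nearest to the threshold in each class, and the copies in families whose copies differed in call; genes outside this rule are named as such.

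For depth, each RPKM was multiplied by its exon length and the commonest low product taken as 1 read. RefSeq TAIR10.1 matched 32835 IDs and gave names, positions, windows, promoters and coding sequences, aligned with Biopython 1.88. The files hold no coordinates. Other settings tried were a pseudocount of 0.1 or 5, no filter, quantile normalization, median-ratio scaling, correction for exon length, the replicate number as a block, family sums and leaving out each library.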

Additional observations from a re-analysis of the deposited data

How the results depend on the processing

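None of the 9 photosystem and antenna genes called turned its direction in any of the 13 other settings. Without a filter on low values, 33323 genes entered, 850 were called over all genes and 0 of the 38 (0 lower and 0 higher antenna genes, 0 of photosystem I and 0 of photosystem II); the cause was not tested. At an adjusted p of 0.0694 and 0.0730, PSBO2 and PSBQ2 were nearest to a call there. With quantile normalization 0 photosystem I genes were called lower, the median was -0.141 for the antenna and -0.257 for photosystem I, and the sign turned for LHCB1.1 (0.064), LHCB4.1 (0.061), LHCB5 (0.007), PSAF (0.023), PSBO1 (0.115), PSBP1 (0.035), PSBX (0.078) and LHCB2.2 relative to LHCB2.1 (0.045). Median-ratio scaling left 1 antenna and 1 photosystem I gene called lower, and removal of the length trend 1 antenna gene. Of all genes called, 69.1% were higher in hid1, against 49.3% with quantile normalization, 52.0% with median-ratio scaling and 51.1% after correction for length.

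Leaving out each library in turn gave 1430 to 3260 genes called, 1 to 6 antenna, 0 to 3 photosystem I and 2 photosystem II genes called lower, and medians of -0.605 to -0.199, -0.496 to -0.349 and -0.31 to -0.216. LHCB1.3 ranged from -0.225 to 0.044, PSAD2 relative to PSAD1 from -0.174 to 0.016, the LHCB1 sum from -0.469 to -0.12 and the LHCB2 sum from -0.752 to -0.264. With the replicate number as a block, 5 antenna, 7 photosystem I and 4 photosystem II genes were called lower. Deviations of same-numbered libraries correlated at 0.315, 0.061 and 0.105, and WT replicate 2 correlated best with hid1 replicate 3 (0.255), so the number was not taken as a pairing. Depth limits LHCB4.3 most, with about 363 reads in its lowest library.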
